A study of Mus musculus with 26 samples.

Results

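The comparison set mammary cells sorted as luminal-basal from mice homozygous for a Snai2-LacZ allele, called null here, against cells sorted as basal from wild-type mice, both at 3 months of age. It used 4 libraries of the 26 in the series, chosen by their sample names and labels: the luminal-basal libraries of pools F82 and F84 (genotype Snai2-LacZ/LacZ) and the basal libraries of pools F79 and F81 (wild type). All mice were of strain B6.129S1, untreated as far as the labels say, and each library came from cells of 3 mice pooled before sorting on EpCAM and CD49f, so a p-value measures the spread between pools. Among the libraries used, the luminal-basal gate of this age held null mice only and the basal gate wild-type mice only, so the gate and the genotype cannot be told apart. The null luminal and stromal cells carry the same allele. Luminal and stromal libraries of the same 4 pools (12 libraries of 3 months in 6 groups of 2) served as reference points and supplied the estimate of spread.

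The mammary duct has an inner layer of luminal cells, which carry simple keratins, tight junctions and milk genes, and an outer layer of contractile basal cells, which carry stratified keratins, smooth muscle actin and the transcription factor p63. SNAI2 (Slug) is a zinc-finger repressor made in basal cells. It binds E-boxes of the sequence CAGGTG and is known for repressing epithelial junction genes such as E-cadherin. Claudins and occludin form the tight junction that seals the luminal surface, and plakophilins and plakins anchor desmosomes to keratin.

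Cells of the luminal-basal gate carried some junction genes that wild-type basal cells nearly lacked. Of the listed genes, 3 of 15 for tight junctions and 1 of 17 for desmosomes and adherens junctions were called higher. No gene of the basal identity and contractile lists passed the test, which does not show them equal. The contractile list leaned lower: its median log2 fold change was -0.63, and 6 of 14 genes lay below both basal libraries (18.0% of all genes tested did). The size of that median depended on the basal libraries, at -0.31 without F79 and -0.89 without F81. Plakophilin 2 (Pkp2), the claudins Cldn4 and Cldn7 and occludin (Ocln) were higher in both luminal-basal libraries. Of 14718 genes tested, 44 were higher (0.299%) and 7 lower (0.0476%) by edgeR's quasi-likelihood test at a Benjamini-Hochberg adjusted p under 0.05, 51 in all (0.347%). Without the luminal-basal library F82, and without F84, all 51 kept their direction. It could hardly turn, as the libraries of the compared groups did not overlap for any of them. Leaving out F82 or F84 also takes the spread between them out of the estimate, while leaving out a basal library keeps it. Which library the calls rest on therefore cannot be told from such fits. With the pool of mice as a replicate block coded within genotype, all 51 were called among 149 genes (106 higher, 43 lower).

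The 4 compared libraries held 5186916 to 16649904 counts, and mitochondrial ribosomal RNA made up 23.8% to 30.7% of them. The luminal-basal libraries were less alike than the basal ones: Pearson's r of log2 CPM (counts per 1e+06 counts, scaled by TMM) over the genes tested was 0.887 between F82 and F84 and 0.95 between F79 and F81, and 0.899 to 0.909 between a luminal-basal and a basal library. These r values describe genes within libraries and are not a test.

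Fibroblast genes set the luminal-basal libraries apart. The 18 genes of the fibroblast list summed to 5024 CPM in luminal-basal F82 and 441 CPM in F84, against 854 and 884 CPM in the basal libraries. Gene by gene, the median level in F82 was 12.8% of that in the stroma of the same mice (4.02% to 21.8%), against 0.54% in F84 and 1.88% and 2.59% in the basal libraries. Dermatopontin (Dpt), a matrix protein of fibroblasts, was at 355 CPM in F82, 13.6 in F84, and 27.6 and 23.3 in basal F79 and F81. Collagen I (Col1a1) was at 404 CPM in F82, 41.0 in F84, and 60.5 and 70.0 in the basal libraries. F82 was thus above both basal libraries and F84 below both, and the difference did not pass the test for Dpt (log2 fold change 2.86 ± 1.02 (SE), edgeR adjusted p = 0.298) or Col1a1 (1.77 ± 0.76, edgeR adjusted p = 0.385). Fewer cells of a type and less RNA per cell cannot be told apart in such bulk libraries.

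Snai2, the targeted gene, checks the labels, though the labels do not say which part of it the allele leaves. It was at 45.7 CPM (230 counts) in basal F79 and 36.6 CPM (597 counts) in basal F81, and at 0 counts in luminal-basal F84. The luminal-basal library F82, labelled null, held 44 counts, or 6.14 CPM, which is 14.9% of the basal mean and goes partly against its label. Luminal and stromal cells of the same pool F82 held 0 and 4 counts, and those of F84 none. In wild-type pools F79 and F81, stroma held 121 and 64 counts but luminal cells only 7 and 13. A luminal count of 0 therefore says little about the genotype. Set to the floor of 3 counts that a count of 0 allows, F84 was at least 111-fold lower than basal, counting error only. The group difference was -3.77 ± 1.21 on the log2 scale with an edgeR adjusted p of 0.269. It passed with the pool block (-6.47, edgeR adjusted p = 0.00655), without F82 (-10.98 as fitted against 0 counts, edgeR adjusted p = 0.000361) and without F84 (-2.73, edgeR adjusted p = 0.0205).

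A second transcript followed the genotype in F82. The processed pseudogene Rpl34-ps1 was at 27.1 CPM in luminal-basal F82 and 27.7 in F84, against 0.199 and 0.0612 in the basal libraries, a ratio of 293 (95% exact binomial interval 80.6 to 2430, from 2 basal counts, counting error only). It was at 14.5 to 19.9 CPM in the luminal and stromal libraries of the null pools and at 0 to 0.237 in those of the wild-type pools. Null exceeded wild type in luminal cells (log2 fold change 9.74, edgeR adjusted p = 0.00296) and in stroma (7.09, edgeR adjusted p = 0.00943) as well. Reads of a processed pseudogene can be shared with its parent gene and other copies, so its level is uncertain.

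Tight junction genes held 3 of the 44 rises. Of the 15 listed, all were tested, 3 were called higher and none lower, and the median log2 fold change was 1.97 against 0.06 over all genes tested. The luminal-basal libraries lay above both basal ones for 12 of the 15, where 19.3% of all genes tested did so. The median was 1.40 without F82, 1.12 without F84, 1.89 without basal F79 and 1.81 without basal F81. The calls were less steady. With all 26 libraries in the fit, 1 of the 15 was called higher, among 8 genes in all. With the 4 compared libraries alone, 0 of 14 tested were, among 2 genes in all.

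Claudin 7 (Cldn7), a claudin of the lateral membrane of epithelia, was at 24.8 CPM in luminal-basal F82 and 36.8 in F84, against 1.59 in basal F79 and 1.41 in F81. The libraries did not overlap, and the log2 fold change was 4.37 ± 0.44 (SE, n = 2 and 2; edgeR adjusted p = 0.000494). Luminal cells held 39.8 and 62.0 CPM in the null pools and 38.5 and 27.9 in the wild-type pools, so F84 lay within the luminal range and F82 just below it. Claudin 4 (Cldn4), a barrier-forming claudin, was at 68.1 and 55.2 CPM in F82 and F84, against 2.18 and 7.10 in basal cells. Both luminal-basal values lay above basal and below all 4 luminal libraries, which ran from 69.3 to 237 CPM. The log2 fold change over basal was 3.63 ± 0.55 (edgeR adjusted p = 0.0158). Occludin (Ocln), the transmembrane protein found at most tight junctions, was at 20.5 and 42.9 CPM, against 0.794 and 4.04 in basal cells and 26.7 to 95.5 in luminal cells. Its log2 fold change was 3.54 ± 0.66 (edgeR adjusted p = 0.0453).

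Stroma of pool F82 held little of these genes. At 12.8% of the F82 stromal level, stroma would hold 0.776 CPM of Cldn4, 0.566 of Cldn7 and 0.21 of Ocln, or 1.14%, 2.28% and 1.02% of what luminal-basal F82 held. The other listed claudins behaved less uniformly. Cldn6 was at 2.23 and 3.02 CPM against 0 and 0.122 in basal cells, and Cldn3 at 11.3 and 6.73 against 1.19 and 1.96. Neither passed with both libraries (edgeR adjusted p = 0.0629 and 0.0725), while both passed without either one of F82 and F84. Tricellulin (Marveld2), which seals the corners where cells meet, was at 14.6 CPM in F82 and 66.7 in F84 against 2.98 and 5.14, and was called without F82 (edgeR adjusted p = 0.00258). The scaffold ZO-1 (Tjp1) was at 387 and 408 CPM against 366 and 316, and the adhesion molecule F11r at 54.7 and 48.8 against 53.2 and 44.5, with edgeR adjusted p of 0.79 and 0.969.

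The promoters of these 3 genes are shown because the genes rose together and because CAGGTG is the E-box that SNAI proteins bind. Each is the stretch of 250 bases before a transcription start in RefSeq (GRCm38.p6), 5′ to 3′ on the gene's own strand, with CAGGTG and its reverse complement CACCTG in capitals.

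Cldn4, chr5:134946935-134947184, minus strand: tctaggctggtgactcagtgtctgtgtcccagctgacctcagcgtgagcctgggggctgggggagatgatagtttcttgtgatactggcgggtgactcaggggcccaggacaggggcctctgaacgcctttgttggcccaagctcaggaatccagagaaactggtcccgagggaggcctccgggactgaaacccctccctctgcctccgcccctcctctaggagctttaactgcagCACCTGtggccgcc
Cldn7, chr11:69965171-69965420, plus strand: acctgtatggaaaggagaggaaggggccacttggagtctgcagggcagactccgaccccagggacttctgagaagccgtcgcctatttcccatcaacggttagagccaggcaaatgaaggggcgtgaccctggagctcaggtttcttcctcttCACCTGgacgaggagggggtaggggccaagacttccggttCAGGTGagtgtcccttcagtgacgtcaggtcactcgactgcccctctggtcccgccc
Ocln, chr13:100552499-100552748, minus strand: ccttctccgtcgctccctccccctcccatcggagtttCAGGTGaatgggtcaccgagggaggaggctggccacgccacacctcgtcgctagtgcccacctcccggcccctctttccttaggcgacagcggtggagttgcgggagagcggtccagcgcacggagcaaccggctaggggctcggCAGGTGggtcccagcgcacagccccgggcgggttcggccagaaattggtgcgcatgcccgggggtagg

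The Cldn4 window holds CACCTG 14 bases before the start. The Cldn7 window holds CACCTG 97 bases and CAGGTG 57 bases before it, and the Ocln window holds CAGGTG 213 and 68 bases before it. Cldn7 and Ocln have another annotated start each, whose windows hold neither. Over all RefSeq windows of the same length, 17.2% hold the hexamer on one strand or the other. By gene, it was in at least one window of 11 of the 33 matched genes called higher (33.3%), in 1 of 2 matched genes called lower, and in 1908 of 10166 matched genes tested (18.8%). A match is a run of letters and not a shown site of binding. Pkp2 and Cdh1 had no entry in the table used.

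**Figure D1:**
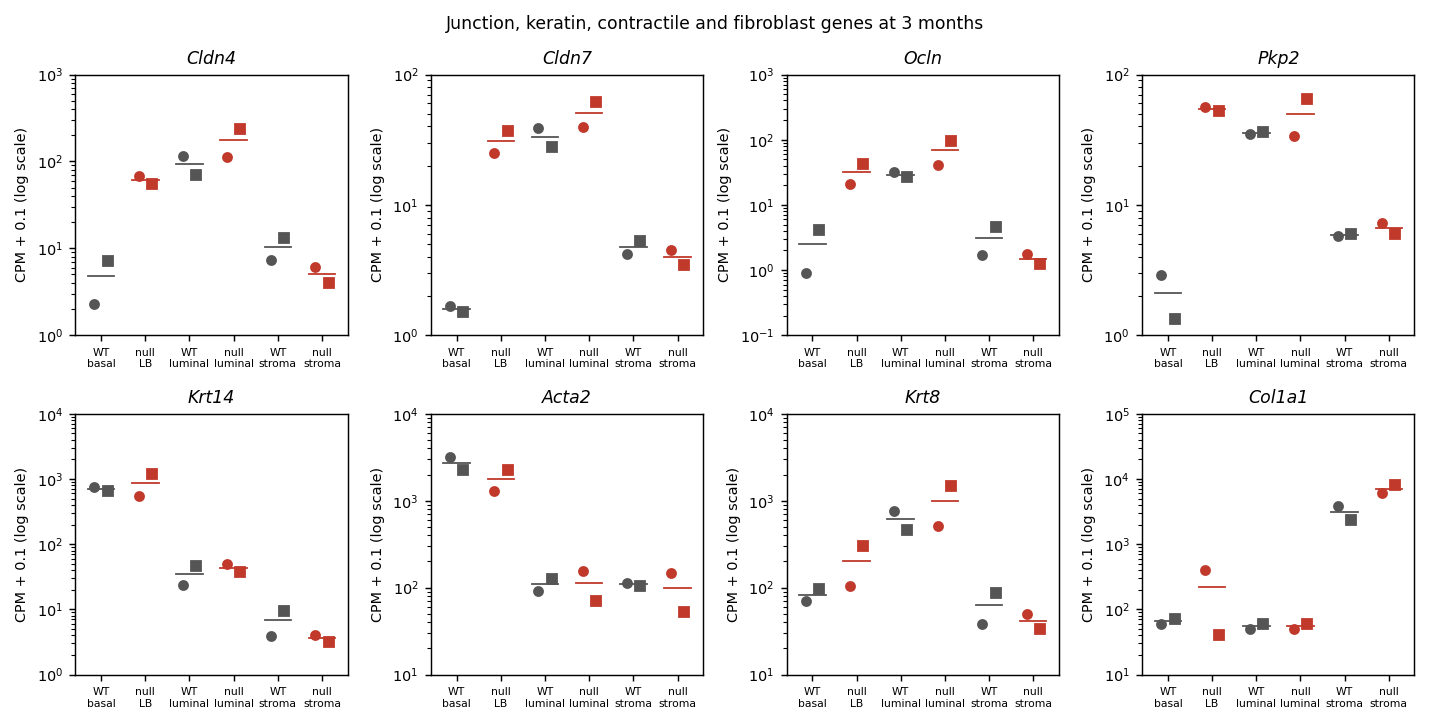
CPM + 0.1 on a log axis for 8 genes in the 12 libraries of 3 months, with 1 point per library, grey for wild type and red for null, and a short line at each group's mean. The luminal-basal points of Cldn4, Cldn7, Ocln and Pkp2 lie above both basal points. Those of Cldn4, Cldn7 and Ocln lie among or below the luminal points. Those of Pkp2 (56.1 and 52.0 CPM) lie among the luminal points, which run from 33.8 to 64.7 CPM, and above most of them. Krt14 and Acta2 sit with basal, and Col1a1 is high in luminal-basal F82 (404 CPM) and low in F84 (41.0 CPM).

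Among 17 desmosome and adherens junction genes, 1 was called higher and none lower, with a median log2 fold change of 0.62. Plakophilin 2 (Pkp2, ENSMUSG00000041957), an armadillo protein of simple-epithelial desmosomes, was at 56.1 CPM in luminal-basal F82 and 52.0 in F84, against 2.78 and 1.22 in basal F79 and F81. The groups did not overlap (log2 fold change 4.87 ± 0.47, edgeR adjusted p = 0.000433). Luminal cells held 33.8 and 64.7 CPM in the null pools and 35.1 and 36.0 in the wild-type pools, and stroma 5.68 to 7.21 in all 4 pools. Pkp2 (chr16:16213318-16272712, GRCm38) lies 1.5 Mb from Snai2 (chr16:14705852-14709385) on the same chromosome. The gene of periplakin (Ppl), also called higher, lies on this chromosome too, 9.57 Mb from Snai2. Null against wild-type luminal cells gave 0.47 ± 0.38 for Pkp2 and stroma 0.19 ± 0.44 (edgeR adjusted p = 0.993), and neither passed. That does not show Pkp2 equal between the genotypes there, and a part of its position near Snai2 was not tested.

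E-cadherin (Cdh1), the adherens junction protein, was at 422 CPM in F82 and 726 in F84 against 167 and 154 in basal cells. It did not pass with both libraries (1.84 ± 0.42, edgeR adjusted p = 0.091) and passed without F82 (2.19, edgeR adjusted p = 0.0055). Plakoglobin (Jup), which links cadherins to the cytoskeleton, was at 290 and 535 CPM against 201 and 232, and plakophilin 1 (Pkp1) at 111 and 295 against 118 and 120. Both passed without F82 only among the fits that left out 1 luminal-basal library. The list had 5 higher calls without F82 (1.76% of all genes tested) with a median of 1.02, and 1 without F84 (3.00%) with a median of -0.02. Beta-catenin (Ctnnb1), at 358 and 441 CPM against 299 and 244, and desmoplakin (Dsp), at 792 and 1278 against 652 and 694, did not pass in either. The plakins envoplakin (Evpl) and periplakin (Ppl), which link desmosomes to keratin, were outside the list and were called: Evpl was at 16.7 and 9.52 CPM against 1.39 and 2.20 (2.79 ± 0.49, edgeR adjusted p = 0.0326) and Ppl at 134 and 294 against 31.8 and 44.1 (2.49 ± 0.46, edgeR adjusted p = 0.0405). They were picked out after their values were seen.

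Basal identity genes showed no call. The list of 14 had none higher and none lower, with a median of -0.26. Keratin 14 (Krt14), the keratin that names the basal layer, was at 551 CPM in luminal-basal F82 and 1186 in F84, against 763 and 665 in basal cells. F82 lay below and F84 above both basal libraries (0.28 ± 0.44, edgeR adjusted p = 0.836), and luminal cells held means of 43.4 (null) and 34.9 (wild type). Krt14, Cldn4 and Pkp2 were the 3 genes used here as markers of the luminal-basal label, and none was part of the sort. Krt14 thus spanned the basal values, and Cldn4 and Pkp2 were above them. Cldn4 and Pkp2 are also calls of this comparison, so the same values are no independent check of the label. Krt5 was at 699 and 1682 CPM against 1021 and 778 (0.40 ± 0.53, edgeR adjusted p = 0.801). The p63 gene (Trp63), the master regulator of the basal state, was at 445 and 186 CPM against 367 and 288 (edgeR adjusted p = 0.982). CD49f itself (Itga6), used in the sort, was at 595 and 905 CPM against 780 and 759.

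Neuregulin 1 (Nrg1), a growth factor that basal cells send to luminal ERBB receptors, split the libraries: 17.6 CPM in F82 and 165 in F84 against 5.96 and 13.8 in basal cells. It passed without F82 (log2 fold change 4.01, edgeR adjusted p = 0.000526) and not with both (3.17 ± 0.91, edgeR adjusted p = 0.198). The oxytocin receptor (Oxtr), which triggers milk ejection, was at 638 and 165 CPM, below both basal libraries at 2078 and 781. Its difference did not pass (-1.83 ± 0.83, edgeR adjusted p = 0.416) but did with the pool block (-2.08, edgeR adjusted p = 0.0499).

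The median of the 14 contractile genes was -0.63, and it was -0.31 without basal F79 and -0.89 without basal F81. None of the 14 was called. Both luminal-basal libraries were below both basal ones for 6 of them and above for none, where 18.0% of all genes tested were below without overlap. Myosin light chain kinase (Mylk), which starts contraction, was at 699 and 788 CPM against 2202 and 1235 (-1.21 ± 0.52, edgeR adjusted p = 0.372). Calponin (Cnn1) was at 444 and 861 CPM against 2219 and 665, and smooth muscle actin (Acta2) at 1310 and 2234 against 3175 and 2232. In luminal cells Acta2 had means of 112 (null) and 109 (wild type), so the luminal-basal libraries sat far nearer to basal cells. The smooth muscle gene Actg2, at 12.4 and 56.9 CPM against 93.7 and 70.8, was the list's 1 lower call without F84 (-2.72, edgeR adjusted p = 0.00712), where 0.370% of all genes tested were called lower. Without F82 the list had none.

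Basement membrane and hemidesmosome genes, 21 in the list, had no call with both luminal-basal libraries. The median was 0.13, and it was 0.39 without F82 and -0.31 without F84. Both luminal-basal libraries lay above both basal ones for 3 of the 21 (19.3% of all genes tested) and below for 3 (18.0%). Laminin alpha 3 (Lama3) was at 451 and 566 CPM against 533 and 454, and collagen XVII (Col17a1), the hemidesmosome anchor, at 371 and 558 against 485 and 444. For both genes the luminal-basal values spanned the basal ones.

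Luminal keratins and surface genes leaned upward without a call. Of 8 listed, 6 were above both basal libraries without overlap (19.3% of all genes tested were) and none below (18.0%), and the median was 1.02. The 6 include the gene of EpCAM. EpCAM (Epcam), on which the cells were sorted, was at 693 and 908 CPM against 318 and 300 in basal cells (1.37 ± 0.41, edgeR adjusted p = 0.188), with luminal means of 1076 (null) and 955 (wild type). Because the gate used EpCAM, its level is no finding. Krt19 was at 154 and 164 CPM against 42.1 and 59.9, and Krt8 at 105 and 305 against 70.1 and 95.7. The 4 luminal libraries ran from 740 to 1587 CPM for Krt19 and from 465 to 1463 for Krt8, so both luminal-basal libraries lay below all of them for each keratin, with F84 nearest for Krt8.

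Among 16 secretory luminal genes tested of 17 listed, 1 was called higher and none lower, with a median of 0.86. The median was 0.05 without F82, with 2 higher calls (1.76% of all genes tested), and 1.5 without F84, with 4 (3.00%), so the list's level depended on F82. The call with both libraries was alpha-S1 casein (Csn1s1), a milk protein, at 156 CPM in F82 and 75.1 in F84 against 1.79 and 6.25 (4.73 ± 0.77, edgeR adjusted p = 0.0384). Caseins also differed among luminal pools: Csn1s1 was at 95.3 CPM in luminal F82 and 457 in luminal F84, against 28.5 and 26 in the wild-type pools, and null against wild type in luminal cells gave 3.34 (edgeR adjusted p = 1). Csn2 was at 82 and 180 CPM against 2.78 and 7.78 in basal cells and did not pass (edgeR adjusted p = 0.188). Csn1s2a was at 27.5 and 22.9 CPM against 0.794 and 1.22 and passed without F82 or without F84 (edgeR adjusted p = 0.0431 and 0.0364). Elf5, a regulator of alveolar fate, was at 13.9 and 5.22 CPM against 3.97 and 6.92.

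The 11 hormone-sensing luminal genes had no call and a median of 0.51. The prolactin receptor (Prlr) was at 422 CPM in F82 and 78.8 in F84 against 85.6 and 224 in basal cells, and the progesterone receptor (Pgr) at 66.9 and 23.1 against 33.8 and 43.1. The list's median was -0.97 without F82 and 0.90 without F84, so its sign depended on the library. Stem cell antigen 1 (Ly6a), also a stromal gene, was at 84.7 and 6.96 CPM against 21.8 and 23.0. It was called lower without F82 (-1.68, edgeR adjusted p = 0.0471) and higher without F84 (1.92, edgeR adjusted p = 0.0072).

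**Figure D2:**
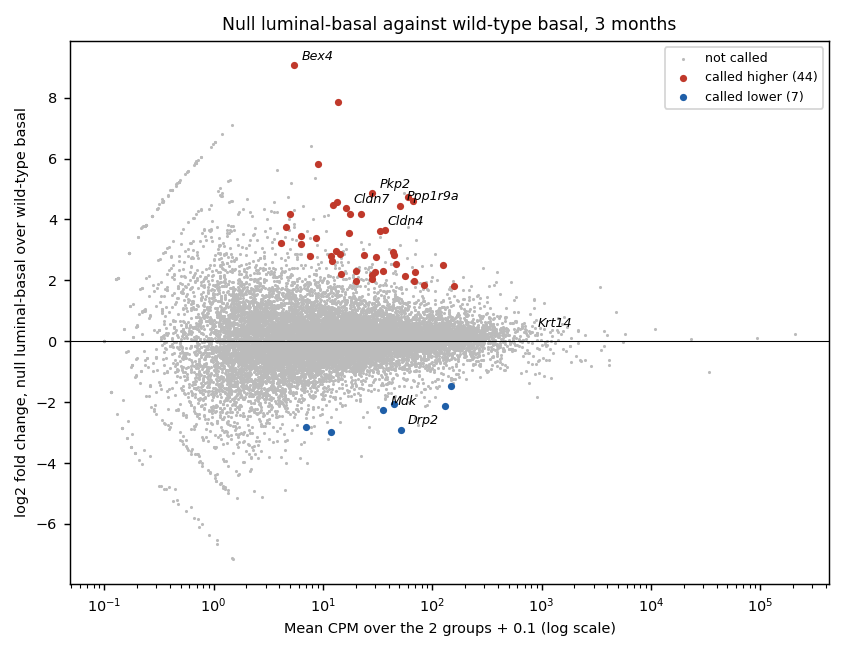
Log2 fold change of luminal-basal over basal cells against mean CPM + 0.1 (log axis) for the 14718 genes tested, with the 44 genes called higher in red and the 7 called lower in blue. Pkp2, Cldn7 and Ppp1r9a stand above 4 on the log2 scale and Drp2 near -3, with Krt14 near 0.

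The call with the smallest p was Ppp1r9a (ENSMUSG00000032827; neurabin-1), a scaffold that ties protein phosphatase 1 to actin. It was at 93.3 CPM in luminal-basal F82 and 99.1 in F84, against 2.98 and 5.45 in basal cells (4.45 ± 0.35, edgeR adjusted p = 9.76e-05). All other fractions also held it, from 47.8 to 78.2 CPM in the 8 luminal and stromal libraries, so the basal libraries were the low ones. Luminal-basal cells were above every one of these 8. Ppp1r9a and Rpl34-ps1 were the 2 genes called in every setting that was run.

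Other large rises were spread over several roles. Grancalcin (Gca), a calcium-binding protein, was at 149 and 108 CPM against 1.59 and 8.14 (4.61 ± 0.55, edgeR adjusted p = 0.00342). The potassium channel gene Kcnh7 was at 24.5 and 10.9 CPM against 0 and 0.429 (5.83 ± 1.03, edgeR adjusted p = 0.0348). Gca and Kcnh7 overlap by 696 bases on opposite strands of chromosome 2, and without the strand setting of the counting the reads in the overlap cannot be told apart. Slain1, a microtubule-end protein, was at 36.7 and 14.6 CPM against 0.794 and 1.22, and the proapoptotic BH3 gene Pmaip1 (NOXA) at 33.2 and 13.5 against 1.39 and 0.796. The small X-linked genes Bex1 and Bex4 rose as well. Bex4 was at 8.79 and 12.6 CPM in luminal-basal cells and had 0 counts in basal cells, at least 77.6-fold higher with the basal group set to 3 counts. Bex1, whose reads may be shared with similar family members, was at 23.7 and 61.3 CPM against 0.794 and 3.43.

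Slc38a1 and Slc7a8, both amino acid transporters, were called higher and were picked out after their values were seen. Slc38a1, a glutamine carrier, was at 42.5 and 95.5 CPM against 3.77 and 6.92 (3.64 ± 0.61, edgeR adjusted p = 0.0297). Slc7a8, a carrier of large neutral amino acids, was at 11.2 and 55.6 CPM against 1.39 and 2.08 (4.19 ± 0.68, edgeR adjusted p = 0.0231). For Slc7a8, the stroma of pool F82 held 51.9 CPM, of which the fibroblast share of 12.8% equals 59.6% of the F82 luminal-basal level. The same figure was 38.1% for the complement regulator Cd55 and 33.5% for the RNA-binding protein Celf2, and 14.6% or less for the other 41 genes called higher. Single fibroblast genes ran from 4.02% to 21.8% of stroma, so these figures are rough. For Fignl2, called lower, the figure was 108%, more than the library held. Without F82 the log2 fold change was 4.92 for Slc7a8 (4.19 with both libraries), 1.56 for Cd55 (2.54) and 1.60 for Celf2 (1.84). The part of stroma in the F82 level of these 3 genes was not tested further.

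Set beside luminal cells, 21 of the 44 genes called higher were above all 4 luminal libraries in both luminal-basal libraries (2944 of all 14718 genes tested were, or 20%), 7 were below all 4 (15.3%), and 16 lay among them. Genes called higher over basal were chosen with the same luminal-basal values, so nothing is read from these shares. The comparison with null luminal cells shares the luminal-basal libraries and so has no independent weight. In it 10 of the 44 were higher (7.41% of all genes tested were) and 2 lower (2.62%). The 10 were Pmaip1, Slc7a8, Sema3e, RP23-57A17.2, Hspa4l, Nalcn, Cntfr, Nebl, Celf2 and Jag1, and the 2 were Myo5c and Unc13b. By that choice, neither wild-type basal nor null luminal cells reached the luminal-basal level of those 10. Null stroma did by its mean for Celf2 (401 CPM against 131), Slc7a8 (42.1 against 33.4) and Sema3e (17.4 against 15.8).

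Nebulette (Nebl), an actin-binding protein, was at 118 CPM in F82 and 101 in F84, 29.2 and 26 in basal cells and 5.94 and 4.84 in null luminal cells (over basal 1.99 ± 0.31, edgeR adjusted p = 0.0172). The sodium leak channel Nalcn was at 56.3 and 43.7 CPM, 8.54 and 12.0 in basal and 3.10 and 4.23 in null luminal cells (2.27 ± 0.42, edgeR adjusted p = 0.0385). The receptor subunit Cntfr, for ciliary neurotrophic factor, was at 108 and 74.5 CPM, against 22.6 and 19.2 in basal and 15 and 15.7 in null luminal cells (2.13 ± 0.38, edgeR adjusted p = 0.0366). All 3 were lower in the luminal than in the basal libraries. For Cntfr the difference of wild-type basal over luminal cells did not pass (0.43 ± 0.38, edgeR adjusted p = 0.539). Stroma held at most 4.77 CPM of any of the 3. Hspa4l, a heat-shock chaperone, was at 45.3 and 60.6 CPM against 7.15 and 8.20 in basal and 17.0 and 23.9 in null luminal cells. The guidance ligand Sema3e was at 10.7 and 20.9 CPM against 0.794 and 1.96 in basal cells and 1.29 and 1.21 in null luminal cells, but its stromal range was 8.76 to 22.5.

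Jagged 1 (Jag1), a ligand that triggers Notch receptors on neighbouring cells, was the 1 call among 11 Notch genes tested of 12 listed. The list's median was 0.07, and it was -0.88 without F82 and 0.21 without F84. Jag1 was at 167 CPM in F82 and 327 in F84, against 69.9 and 71.6 in basal cells and 21.7 and 29.9 in null luminal cells (1.81 ± 0.33, edgeR adjusted p = 0.0366). The receptors Notch1, Notch2 and Notch3 and the mediator Rbpj had edgeR adjusted p of 0.807, 0.692, 0.69 and 0.937. Hes1, a target of Notch, was at 33.2 and 13.2 CPM against 57.8 and 26.9 (edgeR adjusted p = 0.552).

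**Figure D3:**
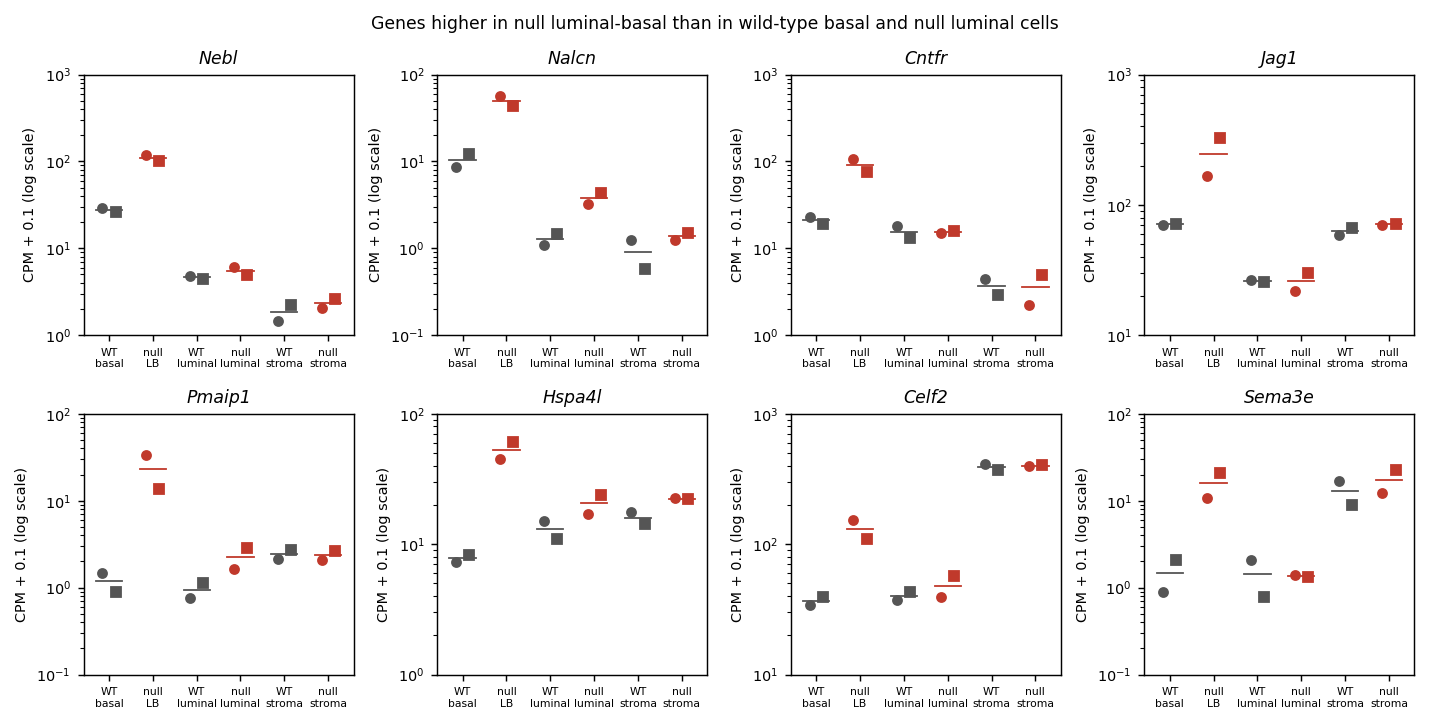
CPM + 0.1 on a log axis for 8 of the 10 genes higher in luminal-basal cells than in both wild-type basal and null luminal cells, with 1 point per library and a line at each group's mean. The luminal-basal points of Nebl (118 and 101 CPM) and Jag1 (167 and 327 CPM) lie above all basal and luminal points, while Celf2 is highest in stroma.

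The 7 genes lower in luminal-basal cells were Drp2, Mdk, Gcc1, Nhsl2, Fignl2, Gm26835 and Gm26514. Dystrophin-related protein 2 (Drp2), a relative of dystrophin, was at 11.2 and 13.1 CPM in F82 and F84 against 100 and 81.7 in basal cells (-2.90 ± 0.42, edgeR adjusted p = 0.0151), with 0.258 to 7.57 in luminal cells. Midkine (Mdk), a heparin-binding growth factor, was at 14.4 and 9.98 CPM against 83.8 and 34.3 (-2.27 ± 0.42, edgeR adjusted p = 0.0405). Both lay between basal and luminal levels. The Golgi protein gene Gcc1 was at 59.3 and 38.5 CPM against 246 and 184, near luminal cells at 31.5 to 47.5. Nhsl2 was at 81.6 and 76.7 CPM against 235 and 202, and Fignl2 at 2.79 and 2.44 against 23.8 and 17.9. Gcc1 and Nhsl2 each overlap another tested gene on the opposite strand. The last pair are the long noncoding RNAs Gm26835 and Gm26514, which overlap Hivep2 and Slc35b3.

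A further contrast asked which differences exceeded that between null and wild-type luminal cells, (luminal-basal minus basal) minus (null luminal minus wild-type luminal). It called 2 genes (0.0136% of 14718), both higher: Ppp1r9a, by 3.95 ± 0.44 (edgeR adjusted p = 0.00786), and Pkp2, by 4.40 ± 0.59 (edgeR adjusted p = 0.0295). Cldn7 stood at 3.75 ± 0.55 (edgeR adjusted p = 0.0532). Cldn4 was at 2.72 ± 0.71 (edgeR adjusted p = 0.676) and Ocln at 2.31 ± 0.86 (edgeR adjusted p = 1). With all 26 libraries of both ages in the fit, no gene passed (295 had an unadjusted p under 0.05).

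**Figure D4:**
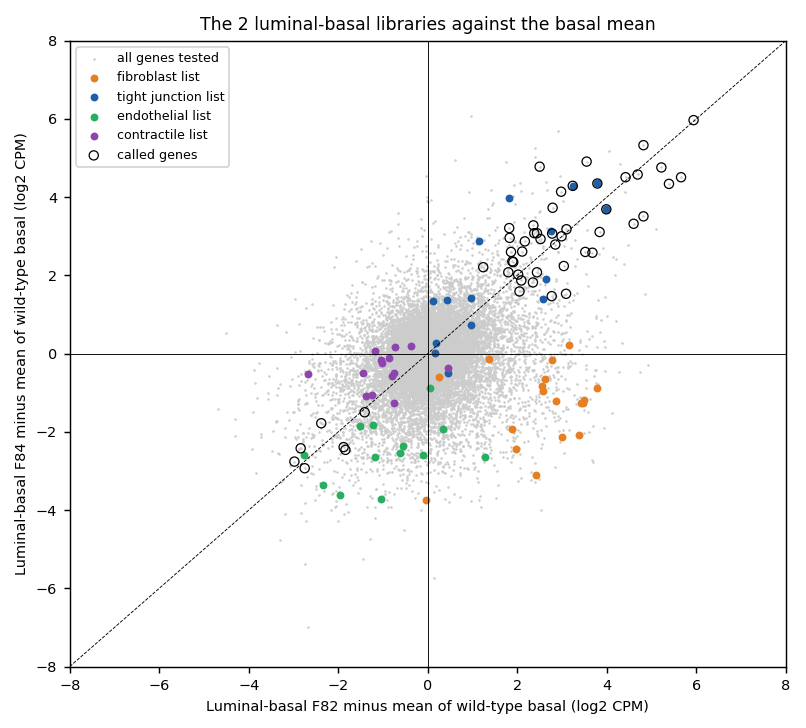
Each gene's log2 CPM in luminal-basal F82 (x axis) and F84 (y axis), minus the mean of the basal libraries. All 51 called genes (black circles) lie on the same side of 0 in both libraries, some of them well off the dashed diagonal of equal values, with tight junction genes mostly in the upper right, fibroblast genes to the right and mostly below 0 in F84, and endothelial genes mostly below 0 in both.

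Lists of mesenchymal and vascular cells differed between the luminal-basal libraries. Of 18 fibroblast genes, none was called with both libraries (median 1.83); without F84 15 were called higher (3.00% of genes tested were) with a median of 2.70, and without F82 6 were called lower (2.36%) with a median of -1.23. The 13 endothelial genes had no call and a median of -1.59, with 9 below both basal libraries (18.0% of all genes tested were). Without F82, 8 of the 13 were called lower (2.36%) with a median of -2.66, and without F84 none was, with a median of -1.28. They summed to 194 CPM in F82 and 52.6 in F84 against 346 and 212. Cdh5, a cadherin of vessel lining, was at 23.3 and 8.12 CPM against 83.6 and 33.4. Among pericyte genes, 4 of 7 tested were called lower without F82 and none with both: Rgs5 was at 177 and 23.8 CPM against 285 and 87.3, and Pdgfrb at 36.0 and 1.97 against 15.5 and 19.4. What part the vascular RNA of the basal libraries has in other results was not tested. The 8 immune genes tested summed to 47.8 to 86.6 CPM in the 4 libraries, and Adipoq, Plin1, Cd3d and C1qa were among the listed genes under the filter.

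Regulators of epithelial-mesenchymal transition showed the same split, and the part of fibroblast RNA in it was not tested. The list of 10 tested genes (12 listed) had no call and a median of 0.68, which was -1.52 with 3 lower calls without F82 (2.36% of all genes tested) and 1.48 with 4 higher calls without F84 (3.00%). Zeb1, a repressor of E-cadherin, was at 59.5 CPM in F82 and 2.20 in F84 against 23.0 and 17.5 in basal cells, and at 245 to 333 in stroma. Zeb2 was at 140 and 7.31 CPM against 52.0 and 35.9, and Prrx1 at 118 and 7.19 against 32.0 and 37.2. For all 3, F82 lay above and F84 below both basal libraries. Snai1, the close relative of Snai2, was at 8.51 and 2.32 CPM against 1.79 and 4.41 (0.74 ± 0.79, edgeR adjusted p = 0.74).

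Early-response genes differed between the luminal-basal libraries too. Egr1 was at 7427 CPM in F82 and 846 in F84 against 3951 and 2605 in basal cells, Fosb at 7371 and 3169 against 1578 and 1492, and Jun at 1759 and 707 against 553 and 385. None of the 16 listed was called with both libraries (median 0.52). Without F82 the median was -0.68 and 4 were called lower (2.36% of all genes tested), and without F84 it was 1.04 and 5 were called higher (3.00%).

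The proliferation genes Mki67 and Top2a were high in F84. Mki67, a marker of cycling cells, was at 22.7 CPM in F82 and 137 in F84 against 46.9 and 20.6, and Top2a at 12.4 and 76.6 against 23.4 and 11.5. Of 17 replication and mitosis genes tested of 18 listed, none was called (median 1.21). The median was 1.96 with 4 higher calls without F82 (1.76% of all genes tested) and -0.38 with 1 without F84 (3.00%). The replication clamp Pcna was above basal in both, at 182 and 156 CPM against 88.9 and 65.9 (1.13 ± 0.29, edgeR adjusted p = 0.149).

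Ligands and receptors of the EGF family had no call with both libraries among 10, with a median of 1.89. Both luminal-basal libraries lay above both basal ones for 7 (19.3% of all genes tested did) and below for 2 (18.0%). The neuregulin receptor Erbb3 was at 70.8 and 48.6 CPM against 12.9 and 16.8 (2.0 ± 0.58, edgeR adjusted p = 0.193), with luminal means of 174 (null) and 184 (wild type). The ligand Hbegf was at 81.9 and 132 CPM against 34.3 and 27.9 (edgeR adjusted p = 0.312). Erbb2 was at 39.5 and 35.6 against 23.4 and 22.8 (0.70 ± 0.27, edgeR adjusted p = 0.304). In the Wnt list of 18 there was no call and a median of -0.03 (0.17 without F82 and -0.29 without F84), and Lgr4 was at 153 and 144 CPM against 159 and 143. The TGF-beta and BMP list of 17 had no call (median 0.49), and Fst, an antagonist of activin, was at 79.4 CPM in F82 and 409 in F84 against 253 and 235.

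The lists of epithelial regulators (11 tested of 12, median 0.53), interstitial matrix (17, 0.28), mitochondrial genome (12 of 13, -0.30), interferon response (12, -0.30), adipocyte (4 of 9, -1.13), skeletal muscle (8 of 9, 2.32) and Schwann cell genes (7, -0.90) had no call with both libraries. Several of these medians depended on F82. Without F82 and without F84, the median was -0.70 and 0.20 for interstitial matrix, -1.06 and 0.36 for interferon response, -0.45 and 0.03 for the mitochondrial genome, -2.69 and -0.47 for adipocyte, 0 and 3.16 for skeletal muscle, -2.36 and -0.33 for Schwann cell genes and 0.84 and 0.24 for epithelial regulators. Interstitial matrix had 1 higher and 2 lower calls without F82 and 3 higher without F84. The skeletal muscle sum was 10.2 CPM in F82, 2.32 in F84 and at most 1.47 in basal cells, so that median rests on very few reads. Within epithelial regulators, Grhl1 was at 19.8 and 20.8 CPM against 1.79 and 7.59 (2.01 ± 0.56, edgeR adjusted p = 0.173) and Grhl2 at 84.8 and 54.4 against 70.7 and 73.5. In the Schwann list, myelin basic protein (Mbp), which has forms outside myelin, was at 29.3 and 79 CPM against 17.7 and 16.8 and was called with the pool block (edgeR adjusted p = 0.0457).

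**Figure D5:**
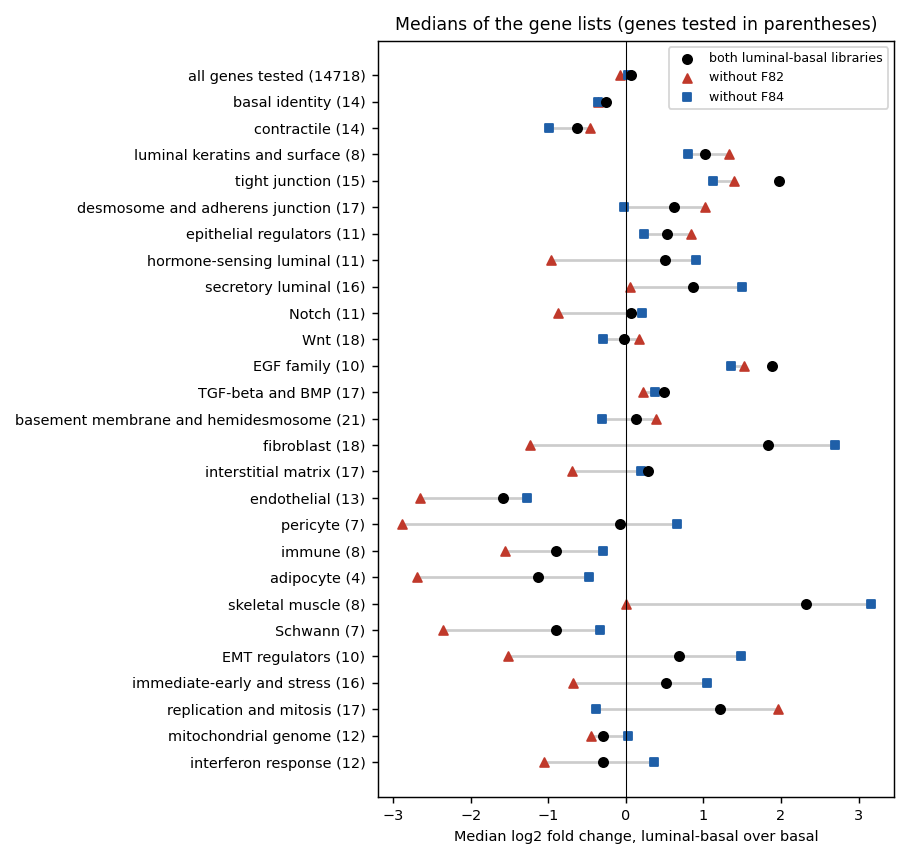
Median log2 fold change of luminal-basal over basal for all genes tested and the 26 gene lists, with both luminal-basal libraries (black circles), without F82 (red triangles) and without F84 (blue squares). The tight junction median stays above 1 in all 3, while the fibroblast median runs from -1.23 to 2.70.

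Placed on a scale from wild-type luminal (0) to wild-type basal (1) by 200 genes each way, the luminal-basal libraries stood at 0.886 (F82) and 0.874 (F84) on genes higher in basal cells, and at 0.627 and 0.727 on genes higher in luminal cells. Stroma stood at 0.673 to 0.762 and 0.691 to 0.912 on the same scales, so a value short of 1 is not particular to a mix of both layers. The scale used the basal libraries themselves and is a description.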

How the data were processed

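RNA-seq counts per gene were read as deposited, for 45706 genes in 26 libraries. Per the labels' protocols, RNA from cells sorted out of frozen minced glands was amplified from a few nanograms with the NuGEN Ovation V2 kit, which primes along whole transcripts, before TruSeq Nano library construction. Per the submitters' processing notes, the authors aligned reads to GRCm38 with TopHat2 2.0.13 and made the deposited counts with HTSeq, with version, overlap mode and strand setting not given in the sources used here. Reads in overlapping genes, which affect 11 of the 51 called genes, may have been dropped or assigned to either one. Positions came from GENCODE vM21 (45143 genes matched) and promoter windows from RefSeq.

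Groups follow the labels for genotype, age and sorted fraction. The filterByExpr function of edgeR 4.0.16, given the groups, its default count minimum of 10 and a total of 15, passed 14718 genes, and TMM factors were computed on these. The 12 libraries of 3 months were fitted together by robust quasi-likelihood with 1 coefficient per group, so all 6 groups share the estimate of spread, and p-values were adjusted by Benjamini-Hochberg over all genes tested and called under 0.05. Standard errors are the log2 fold change divided by the square root of F. CPM are counts over the kept-gene total times the TMM factor, times 1e+06, with no correction for gene length, so levels are compared within a gene. Folds against 0 counts use a floor of 3 counts for the group. The contrast with null luminal cells was added after the data were seen. The members, the 26 gene lists and the tests were chosen with earlier results of these data known.

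Named genes were the 12 largest rises and falls among called genes whose libraries did not overlap and whose higher group averaged 10 CPM or more (numbered gene models left out), up to 5 members of each list (called ones by p, otherwise those of highest CPM), the 5 smallest p-values each way of the contrast beyond luminal cells, and Snai2, Snai1, Krt14, Krt5, Trp63, Krt8, Cldn4, Pkp2, Epcam, Itga6 and Col1a1. Other list members and called genes given with values were chosen after their values were seen. Replicate libraries differed beyond sampling noise. Libraries of 1 pool come from the same mice, and their deviations from the group means gave 6 distinct correlations, 5 of them above 0.1 (r 0 to 0.228), since with 2 libraries a group the deviations mirror each other. The pools of the compared groups are different mice, so the block was coded within genotype. On data simulated for this comparison with 14321 genes, the test called 2 of 50 genes changed 2-fold, 32 of 50 changed 4-fold, 47 of 50 changed 8-fold, all 50 changed 16-fold and 3 of 14121 unchanged genes. Depth ran from 2951035 to 16649904 counts (median 5355182.5) in the 12 libraries. Alternatives were no filter, RLE scaling, other sets of libraries, DESeq2, the pool block and leaving out each compared library. R 4.3.3 and Python 3.11.15 were used.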

Additional observations from a re-analysis of the deposited data

Results flagged for a closer look

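Ppp1r9a and Pkp2 differed more between luminal-basal and basal cells than between null and wild-type luminal cells, by 3.95 ± 0.44 and 4.40 ± 0.59 on the log2 scale (edgeR's quasi-likelihood test of the interaction, Benjamini-Hochberg adjusted p = 0.00786 and 0.0295). Ppp1r9a was at 93.3 and 99.1 CPM in luminal-basal cells, 2.98 and 5.45 in basal cells, 78.2 and 62.6 in null luminal cells and 48.8 and 50.6 in wild-type luminal cells. For Pkp2 the values were 56.1 and 52.0 CPM in luminal-basal cells, 2.78 and 1.22 in basal cells, 33.8 and 64.7 in null luminal cells and 35.1 and 36.0 in wild-type luminal cells. In both genes the low values were those of the wild-type basal libraries. Of the alternatives that could give this contrast, the fit to all 26 libraries called neither gene and the fit without basal F81 called 1 of the 2, and the others called both.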

How the results depend on the processing

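All 51 genes kept their direction in every alternative that gave a value, and 2 (Ppp1r9a and Rpl34-ps1) were called in each. Leaving out 1 library could hardly turn a direction, since the libraries of the compared groups did not overlap for any of the 51. The number of calls moved more. Against 51 (44 higher, 7 lower), no filter on low counts gave 731 (551 and 180), DESeq2 288 (192 and 96), the replicate block 149 (106 and 43), RLE scaling 59 (45 and 14), the 24 libraries of both ages without the A5 luminal-basal and stromal ones, doubted for their markers, 54 (34 of the 51 among them), all 26 libraries 8 and the 4 compared libraries alone 2. Leaving out 1 library gave 5 (without basal F79) to 645 (without luminal-basal F82), with 8 without basal F81 and 528 without luminal-basal F84. The lone library left in a group is then assumed to vary like the other groups. Leaving out F82 or F84 also removes the spread between them, so calls kept cannot show which library they rest on. All 51 calls remained without F82 and without F84, 5 without F79 and 7 without F81. The contrast beyond luminal cells called 2 genes, 163 with no filter, 18 with DESeq2, 0 with all 26 libraries (295 with an unadjusted p under 0.05) and 2 to 198 when 1 library was left out; the 4 compared libraries alone cannot give it. The causes were not tested.

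Among the 136 named genes, direction turned with a call only when a luminal-basal library was left out. Values without F82 and without F84 were -1.68 and 1.92 for Ly6a, -2.26 and 1.77 for Prrx1, -2.57 and 1.68 for Zeb2, -3.17 and 1.57 for Zeb1, -1.95 and 1.18 for Egr1, -2.11 and 1.24 for Lpl, -3.13 and 1.04 for Pdgfrb, and 0.76 and -1.62 for Fst. The block added calls for Kctd11, Mbp, Snai2 and Oxtr and changed no other call of a named gene. With 2 pools a group and the simulated recovery of 2 of 50 genes changed 2-fold, differences near 2-fold were mostly not detectable, and list members without a call are not shown to be equal.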
